A study of Mus musculus with 8 samples.

Results

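The 10 genes described here encode enzymes of glycolysis: Hk1, Hk2, Pfkl, Pfkp, Pfkfb3, Aldoa, Pgk1, Tpi1, Pkm and Ldha. They were taken by symbol from a table of 18262 genes, in which they fill 11 rows because Aldoa is listed under 2 identifiers. Colon tissue of wild-type mice was profiled by RNA sequencing. These were mice whose colitis was induced with DSS (dextran sulfate sodium), which damages the lining of the colon. The DSS group holds 4 libraries. The DSS + GAA group holds 4 libraries of mice given DSS and GAA (ganoderic acid A, a triterpenoid made by Ganoderma mushrooms) at 20 mg/kg as well. Replicates are numbered 1, 2, 4 and 5 in either group. The treatment labels of the GAA libraries read 20, 21, 22 and 23 mg/kg, while their titles and the design text give 20 mg/kg, so they were kept as 1 group. The sources used here do not give strain, age, sex, DSS dose or schedule. Whether libraries come from separate animals is not stated either, and p-values then measure only the spread between these samples, which may be technical. Tissue without colitis was not analysed here, so no healthy level is given.

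Glycolysis splits glucose into pyruvate and yields ATP without oxygen. Hexokinases trap glucose as its phosphate, phosphofructokinase commits it to the pathway, and aldolase and triosephosphate isomerase turn the product into triose phosphates. Phosphoglycerate kinase and pyruvate kinase make ATP, and lactate dehydrogenase A turns pyruvate into lactate. Pfkfb3 is not a step of the pathway: its enzyme makes fructose 2,6-bisphosphate, the strongest activator of phosphofructokinase. Colonocytes of healthy tissue burn mainly butyrate in mitochondria, while activated leukocytes rely on glycolysis, and the hypoxia-inducible factor HIF-1 induces most of these genes.

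Values are TPM as deposited, a unit that divides reads by transcript length and scales every library to the same total. Sequencing depth is unknown, and TPM of a gene pools its isoforms, so the M1 and M2 forms of Pkm are not told apart. Several of these genes, among them Pgk1, Aldoa, Tpi1, Pkm and Ldha, have near-identical processed pseudogenes that could share reads with them. Fold changes are on the log2(TPM + 1) scale, as DSS + GAA over DSS, with standard errors from limma. P-values were adjusted by Benjamini-Hochberg over 14217 genes, those that reached 1 TPM in 4 or more libraries. A gene passed where its adjusted p was under 0.05. A fall can come from fewer cells of a type or from less RNA per cell, which cannot be told apart in whole tissue.

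Of the 10 genes, 1 fell and 0 rose on TPM as deposited, while under 2 of 3 other scalings 1 fell and 3 rose. Under those 2 scalings more of all genes rose and fewer fell than as deposited, with counts given below. Pfkfb3 fell from a mean of 89.1 to 30.5 TPM, and the 9 enzymes that carry out the steps of the pathway did not pass on the deposited scale. Among all tested genes 28.2% fell, 5.96% rose and 34.1% changed in either direction on TPM as deposited. There 1 call in 10 is no more than the background share. Groups did not overlap for 2 of the 10 main rows, Pfkfb3 and Aldoa, and for 32.9% of all tested genes in either direction. The median log2 fold change was -0.12 over the 10 genes and -0.25 over all tested genes. The summed TPM of the 10 genes lay between 4347 and 5121 in DSS and between 4231 and 4844 in DSS + GAA, and these ranges overlap.

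The sequences shown are those upstream of a start site of Pfkfb3, the gene that fell, and of Hk2 and Pgk1, which did not pass and hold the same short motif. They are the 250 bases before each RefSeq start on GRCm38.p6, 5′ to 3′ along the gene, with ACGTG or GCGTG, the cores of the hypoxia response element, in capitals (as CACGT or CACGC where they lie on the opposite strand).
Pfkfb3, chr2:11502091-11502340, minus strand: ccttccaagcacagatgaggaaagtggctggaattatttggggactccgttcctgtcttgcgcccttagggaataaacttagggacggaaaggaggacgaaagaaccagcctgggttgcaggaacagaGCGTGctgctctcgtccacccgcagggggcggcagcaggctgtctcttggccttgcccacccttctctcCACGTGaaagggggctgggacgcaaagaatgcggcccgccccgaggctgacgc
Hk2, chr6:82774455-82774704, minus strand: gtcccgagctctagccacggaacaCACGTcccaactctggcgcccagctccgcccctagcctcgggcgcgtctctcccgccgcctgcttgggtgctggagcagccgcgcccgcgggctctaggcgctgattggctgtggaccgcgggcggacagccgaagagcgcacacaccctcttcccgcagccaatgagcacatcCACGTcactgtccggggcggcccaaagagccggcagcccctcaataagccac
Pgk1, chrX:106186850-106187099, plus strand: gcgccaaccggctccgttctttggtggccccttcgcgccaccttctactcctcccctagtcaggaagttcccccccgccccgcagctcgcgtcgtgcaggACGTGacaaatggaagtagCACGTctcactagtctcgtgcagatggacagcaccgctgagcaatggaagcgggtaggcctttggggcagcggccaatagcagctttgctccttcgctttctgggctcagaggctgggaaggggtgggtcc
All 3 windows hold ACGTG, that of the gene that fell and those of the genes that did not pass. Pfkfb3 has a second RefSeq start farther upstream, whose window is not shown. In the Pfkfb3 window shown, which lies before the start of several annotated transcripts, the motif lies within CACGTG, the palindromic E-box, which holds ACGTG on both strands. RefSeq gave 16 such windows for the 10 genes, some of them overlapping. ACGTG stood on either strand in 8 of the 16 (50.0%) and in 16.6% of all 32851 windows, and GCGTG in 5 (31.2%) and in 28.2% of all. CACGTG stood in 2 of the 16 (12.5%), 1 of Pfkfb3 and 1 of Ldha, and in 6.02% of all. The bases after the start of that Ldha window matched no annotated GENCODE transcript of the gene. The other Ldha window held neither ACGTG nor CACGTG. The windows were not matched on base composition, and a match is not a measured binding site. The window of Tpi1 held none of these letters.

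Pfkfb3 (chromosome 2, 11471433 to 11554077, minus strand) stood at 103, 97.5, 59.5 and 95.9 TPM in DSS replicates 1, 2, 4 and 5. In DSS + GAA it stood at 48.7, 33.9, 24.9 and 14.4 TPM in the same order of numbers. The highest DSS + GAA library lay below the lowest DSS library, DSS replicate 4. The means were 89.1 ± 20.0 and 30.5 ± 14.5 TPM (SD, n = 4 per group). The log2 fold change was -1.61 ± 0.33 (limma adjusted p = 0.00943), with a 95% interval of the fold from 0.194 to 0.552. Groups did not overlap on the lower side in 27.6% of all tested genes. The call held in 18 of 18 alternative settings, with limma adjusted p between 0.00171 and 0.0387. In the authors' deposited table its log2 fold change is -1.55 at a false discovery rate of 0.000315, and it is the only one of the 10 tested genes under 0.05 there, where 16.2% of all rows fall at that rate.

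Some markers of several cell types fell as Pfkfb3 did, where 28.2% of all tested genes fell and 5.96% rose. Neutrophil markers summed to between 2080 and 6404 TPM in DSS and between 137 and 378 TPM in DSS + GAA, and 6 of 7 fell. S100a8 and S100a9, the calprotectin subunits, had means of 1616 and 2074 TPM in DSS and of 104 and 93.8 TPM in DSS + GAA. Endothelial markers summed to between 72.7 and 125 TPM and between 18.6 and 74.4 TPM, and 4 of 5 fell. These sums overlapped through DSS replicate 5 and DSS + GAA replicate 1. Markers of enteric neurons and glia summed to between 742 and 1483 TPM and between 135 and 403 TPM, and 6 of 6 fell. Fibroblast markers summed to between 1440 and 4363 TPM and between 342 and 1232 TPM, and 2 of 6 fell, Dcn and Lum. This is near the share of all tested genes that fell. Dcn was the largest part of the sum, with means of 1789 and 331 TPM. The groups of Col1a1, Col1a2, Col3a1 and Pdgfra overlapped, and these genes did not pass. Adipocyte markers summed to between 292 and 512 TPM and between 26.6 and 89.9 TPM, nearly all of it Fabp4. Fabp4 was the only 1 of the 4 tested, and it fell. Adipoq had means of 2.60 and 0.11 TPM, and Plin1 and Lep stayed under 1 TPM in every library. Erythroid markers summed to between 191 and 386 TPM and between 9.70 and 62.7 TPM, with 5 of 5 lower. Markers of colonic epithelium were abundant in all libraries, in keeping with the labelled tissue, at 10273 to 13367 and 14156 to 16160 TPM. Of 8 such markers 4 were higher and 1 lower. The lower one was Car1, with means of 2704 and 1200 TPM (limma adjusted p = 0.00955). T and NK cell markers summed to between 19.2 and 31.9 TPM in DSS and between 56.2 and 127 TPM in DSS + GAA, and 4 of 5 tested rose. Smooth muscle markers (1867 to 5155 and 1505 to 3691 TPM, 0 of 6 called), macrophage markers (399 to 491 and 140 to 547 TPM, 1 of 6 lower) and B and plasma cell markers (1152 to 1944 and 867 to 3198 TPM, 0 of 4 called) overlapped. Skeletal muscle markers were low in both groups, at 7.97 to 14.8 and 8.79 to 14.1 TPM in sum. Of 4 tested, Mylpf was higher (means 2.03 and 3.64 TPM, limma adjusted p = 0.0398) and Tnnt3 lower (2.79 and 0.988 TPM, 0.0140), and Pvalb was listed at 0 in all 4 DSS libraries. Myh4 of the skeletal muscle list and Trbc2 of the T and NK cell list had no row under these symbols in the deposited values. None of the remaining listed markers was at 0 in every library. The part of these cell types in the fall of Pfkfb3 was not tested.

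Pfkfb3 had the largest share of the summed TPM of the 4 PFKFB genes in DSS. Its share was 80.9%, 78.6%, 71.9% and 78.5% in the DSS libraries and 66.95%, 58.8%, 53.6% and 34.3% in the DSS + GAA libraries. The groups did not overlap, and the means were 77.5% ± 3.89 and 53.4% ± 13.9 (SD, n = 4). Pfkfb4, a paralogue with the same pair of activities, had 11.4% ± 2.93 in DSS and 29.5% ± 8.12 in DSS + GAA. Its own TPM went from 12.6 ± 1.44 to 15.6 ± 2.94 and did not pass (log2 fold change 0.28 ± 0.16, limma adjusted p = 0.209). After median centring (limma adjusted p = 0.0428) or quantile normalization (0.0363) it passed as higher. Pfkfb1 fell from 2.42 ± 0.72 to 1.23 ± 0.41 TPM (-0.61 ± 0.20, limma adjusted p = 0.0423). That call was lost in 10 of 17 alternative settings, among them all 3 other scalings (limma adjusted p between 0.0284 and 0.587 over the 17). Pfkfb2, which dominates in heart, went from 10.2 ± 1.12 to 7.42 ± 1.66 TPM (-0.42 ± 0.17, limma adjusted p = 0.0870). Tigar, whose phosphatase lowers fructose 2,6-bisphosphate, had means of 15.7 ± 2.10 and 14.95 ± 1.72 TPM (-0.07 ± 0.14, limma adjusted p = 0.725), and its sign turned under all 3 other scalings.

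**Figure D1:**
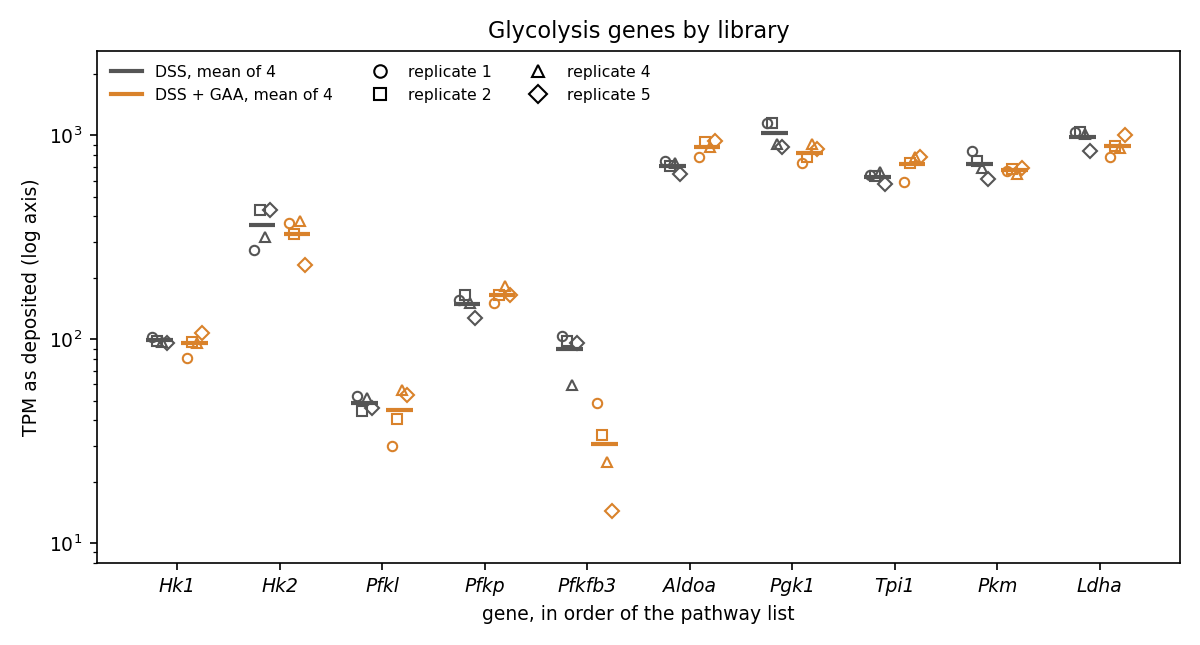
TPM of the 10 glycolysis genes in each library, on a log axis. Points are libraries, with the symbol giving the replicate number, and bars are means of 4. The 4 DSS + GAA points of Pfkfb3 lie between 14.4 and 48.7 TPM, below all 4 DSS points, while the groups of the other genes lie close together.

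The enzymes of Hk1 and Hk2 bind the mitochondrial surface and open the pathway. Hk1, the housekeeping form (chromosome 10, 62268855 to 62379908, minus strand), stood at 103, 98.5, 97.1 and 95.8 TPM in DSS and at 80.9, 96.8, 95.9 and 108 TPM in DSS + GAA. The DSS + GAA values spanned the DSS values, and the log2 fold change was -0.06 ± 0.11 (limma adjusted p = 0.729; 95% interval of the fold 0.806 to 1.15). Hk2, the inducible form (chromosome 6, 82725025 to 82774454, minus strand), stood at 272, 432, 319 and 433 TPM in DSS and at 372, 328, 380 and 232 TPM in DSS + GAA. The groups overlapped, and both varied more than those of Hk1 (SD 81.1 and 67.6 TPM). The fitted difference was -0.15 ± 0.21 on the log2 scale (limma adjusted p = 0.612; interval 0.649 to 1.25). Hk2 made up 76.9% ± 4.46 of the summed TPM of the 4 hexokinase genes tested in DSS and 75.1% ± 5.63 in DSS + GAA. Hk3, the leukocyte form, named after its values were seen, made up 1.04% ± 0.22 and 1.497% ± 1.08, and its TPM lay between 3.86 and 5.90 in DSS and between 1.43 and 13.4 in DSS + GAA.

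Phosphofructokinase is a tetramer of the liver, platelet and muscle subunits. Pfkl, the liver subunit (chromosome 10, 77986947 to 78010083, minus strand), stood at 52.5, 44.6, 51.8 and 46.1 TPM in DSS and at 30.0, 40.6, 56.2 and 53.1 TPM in DSS + GAA. The DSS + GAA libraries lay both above and below the DSS range (log2 fold change -0.15 ± 0.19, limma adjusted p = 0.566; interval 0.669 to 1.21). Pfkp, the platelet subunit (chromosome 13, 6579768 to 6648777, minus strand), was the most abundant, at 156, 164, 150 and 127 TPM in DSS and 150, 165, 182 and 165 TPM in DSS + GAA. The groups overlapped (0.15 ± 0.12, limma adjusted p = 0.346; interval 0.922 to 1.34). Pfkm, the muscle subunit and not among the 10 genes, fell from 19.3, 12.7, 15.6 and 19.5 TPM to 11.02, 9.14, 6.17 and 7.68 TPM. Its groups did not overlap (-0.91 ± 0.20, limma adjusted p = 0.0108), and under quantile normalization the call was lost (0.0513). Pfkp made up 69.4% ± 3.42 of the summed TPM of the 3 subunit genes in DSS and 75.7% ± 2.43 in DSS + GAA, and Pfkm 7.89% ± 1.86 and 3.98% ± 1.38.

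Aldoa, the aldolase of muscle and most other tissues, was the listed gene with the largest positive difference. Its main row (chromosome 7, 126795234 to 126800751, minus strand) stood at 751, 707, 732 and 648 TPM in DSS and at 779, 923, 878 and 939 TPM in DSS + GAA. All 4 DSS + GAA libraries lay above the 4 DSS libraries, as in 5.31% of all tested genes. The log2 fold change was 0.31 ± 0.12 and did not pass (limma adjusted p = 0.0768; interval of the fold, unadjusted, 1.02 to 1.499). It passed under trimmed mean scaling (limma adjusted p = 0.0114), median centring (0.0103), array quality weights (0.0278) and without DSS + GAA replicate 1 (0.0330). The range over all alternatives was 0.0103 to 0.197. The second Aldoa row is a separate gene model just upstream on the same strand (chromosome 7, 126800790 to 126809108), with 2 transcripts in the annotation. It stood at 1.09, 1.35, 0.861 and 1.88 TPM in DSS and at 0.201, 0.096, 0.408 and 0.309 TPM in DSS + GAA. This row went the other way, with groups that did not overlap, and it was left out of the test by the filter on low values. In the authors' deposited table it has a log2 fold change of -2.35 at a false discovery rate of 4.99e-05. The sources used here do not say how reads of the 2 models were told apart.

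Tpi1, which interconverts the triose phosphates (chromosome 6, 124810586 to 124814296, minus strand), stood at 640, 634, 658 and 577 TPM in DSS and at 588, 732, 787 and 782 TPM in DSS + GAA. DSS + GAA replicate 1 lay within the DSS range and the other 3 above it (log2 fold change 0.20 ± 0.14, limma adjusted p = 0.283; interval 0.928 to 1.41). Aldoa and Tpi1 catalyse neighbouring steps and were the closest pair of the 10 genes by pattern, with a root mean square difference of 0.09 between their log2 values over the 8 libraries, each centred on its own mean. The nearest to Pfkfb3 among the 10 was Hk2, at 0.84.

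Pgk1, which makes the first ATP of the pathway (chromosome X, 106187100 to 106203699, plus strand), stood at 1144, 1155, 911 and 875 TPM in DSS and at 728, 786, 905 and 854 TPM in DSS + GAA. DSS replicates 1 and 2 lay above all other libraries, and the groups overlapped through DSS + GAA replicate 4 (log2 fold change -0.31 ± 0.15, limma adjusted p = 0.126; interval 0.641 to 1.01). Pkm, the pyruvate kinase of most tissues (chromosome 9, 59656368 to 59679375, plus strand), stood at 836, 752, 690 and 608 TPM in DSS and at 671, 685, 647 and 692 TPM in DSS + GAA. The DSS + GAA libraries lay inside the DSS range (-0.09 ± 0.13, limma adjusted p = 0.623; interval 0.766 to 1.15). Ldha (chromosome 7, 46841475 to 46855627, plus strand) stood at 1039, 1036, 1017 and 841 TPM in DSS and at 783, 883, 866 and 1004 TPM in DSS + GAA. The groups overlapped (-0.15 ± 0.14, limma adjusted p = 0.402; interval 0.728 to 1.11).

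In DSS the order of the mean levels was Pgk1, Ldha, Pkm, Aldoa, Tpi1, Hk2, Pfkp, Hk1, Pfkfb3 and Pfkl. TPM is per length, so levels can be set side by side. Ranges of neighbours overlapped for Pgk1 and Ldha, for Pkm, Aldoa and Tpi1, and for Hk1 and Pfkfb3. In DSS + GAA the order was Ldha, Aldoa, Pgk1, Tpi1, Pkm, Hk2, Pfkp, Hk1, Pfkl and Pfkfb3, where the ranges of the first 5 overlapped from neighbour to neighbour, as did those of Pfkl and Pfkfb3. Pfkfb3 ranked 1872 of all 18262 genes by mean TPM in DSS and 4467 in DSS + GAA. Pgk1, Ldha, Pkm, Aldoa and Tpi1 ranked between 99 and 198 in DSS and between 126 and 194 in DSS + GAA.

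**Figure D2:**
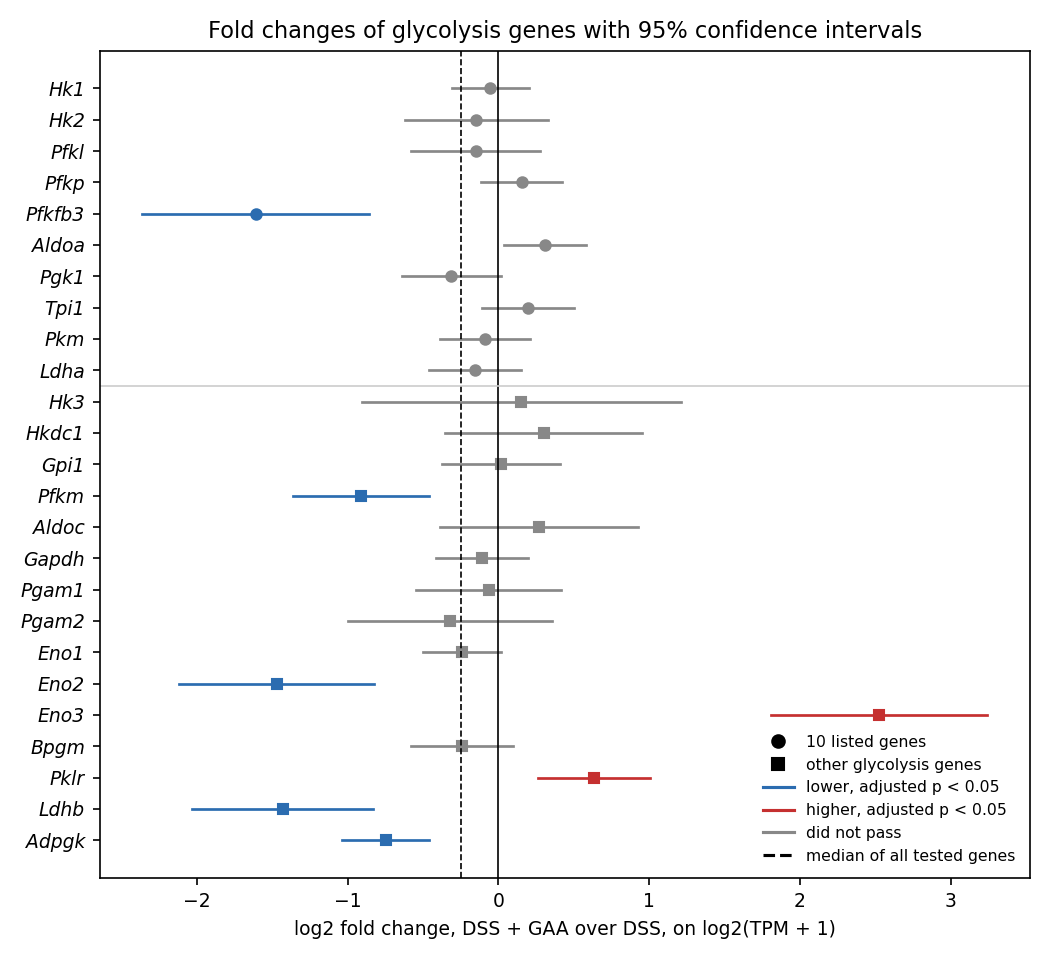
Log2 fold changes of the 10 listed genes (circles, above the grey line) and of other tested glycolysis genes (squares), with 95% intervals from limma. The dashed line is the median of all tested genes, at -0.25. On TPM as deposited Pfkfb3 is the only circle past the threshold, while 4 squares are lower and 2 are higher.

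The scaling between libraries bears on the 9 genes that did not pass. As deposited, the median shift over all genes that were tested was -0.25 in log2, and 8 of the 10 listed genes lay above it. After trimmed mean scaling (median of all genes -0.0035) and after median centring (0.05), Aldoa, Tpi1 and Pfkp passed as higher, so 3 rose and 1 fell. Tpi1 had log2 fold changes of 0.47 (limma adjusted p = 0.0292) and 0.50 (0.0272), and Pfkp of 0.43 (0.0319) and 0.46 (0.0273). Under quantile normalization (0.02) none of the 3 passed. As deposited 847 of all 14217 tested genes rose and 4006 fell. Under median centring 2165 of all genes rose and 1308 fell. Trimmed mean scaling moved both counts the same way, as given below, so the 3 rises came where rises were more common among all genes. Hk1, Hk2, Pfkl, Pkm and Ldha turned from negative to positive under trimmed mean scaling and median centring, and Hk1 and Pfkl also under quantile normalization. No direction is therefore given for these 5 genes. Pfkfb3 was lower under each of the 4 scalings, at -1.61, -1.44, -1.34 and -1.31.

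**Figure D3:**
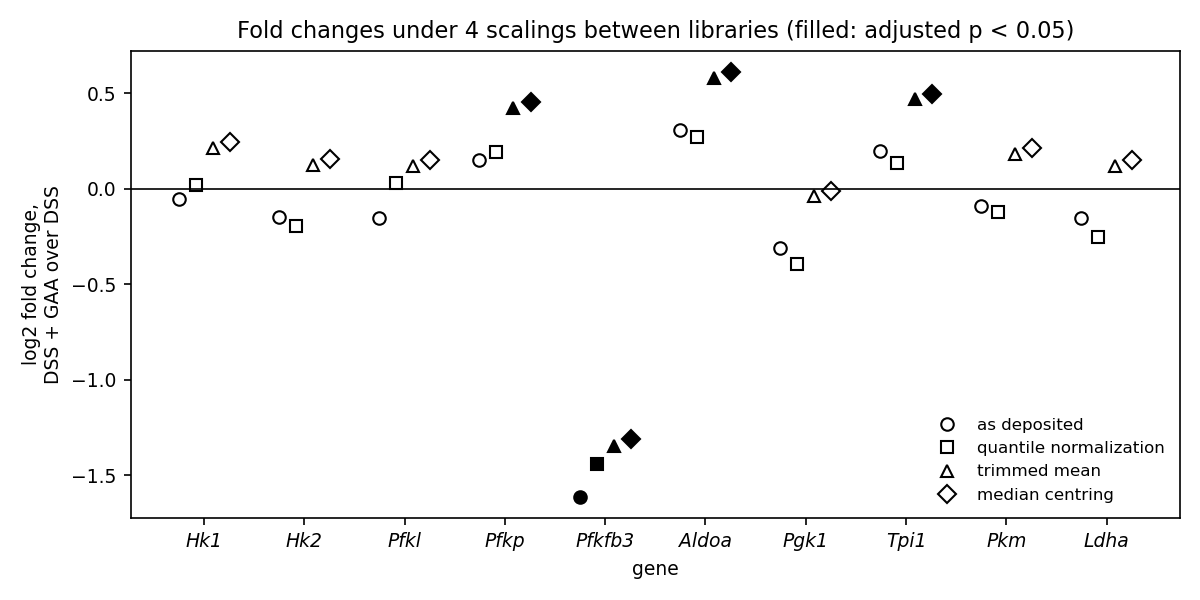
Log2 fold change of each listed gene on TPM as deposited and after quantile normalization, trimmed mean scaling and median centring. Filled symbols passed at an adjusted p under 0.05. Pfkfb3 is filled under all 4, and Pfkp, Aldoa and Tpi1 are filled under trimmed mean scaling and median centring.

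Isozymes were also set against each other within each library, as were Pfkfb3 and Tigar, which are not isozymes. A factor common to a whole library leaves such a ratio nearly as it is, but quantile normalization can move it, and the ratios were taken on TPM as deposited only. For 7 pairs, log2(TPM + 1) of the second gene was subtracted from that of the first, and the groups were set against each other by an exact permutation test, two-sided, over 70 assignments, whose smallest p is 0.0286. None of the 7 passed after adjustment over the pairs, where a pair at the smallest p passes only if most other pairs reach it too. Ldha over Ldhb, the heart form that favours pyruvate, was 4.34, 4.83, 4.76 and 4.19 in DSS and 4.89, 5.66, 6.18 and 6.50 in DSS + GAA. The groups did not overlap (difference 1.28, exact permutation p = 0.0286, adjusted p = 0.10). Pkm over Pklr, the liver and red cell pyruvate kinase, was 4.54, 4.44, 3.83 and 3.86 in DSS and 3.82, 3.45, 3.21 and 3.31 in DSS + GAA. These groups did not overlap either, though DSS + GAA replicate 1 lay just below the lowest DSS library (difference -0.72, exact permutation p = 0.0286, adjusted p = 0.10). The Pfkfb3 to Tigar ratio had means of 2.40 and 0.86, with overlap between DSS replicate 4 and DSS + GAA replicate 1, and did not pass (exact permutation p = 0.0571, adjusted p = 0.133). The Pfkm to Pfkl ratio differed by -0.76 (exact permutation p = 0.114, adjusted p = 0.20) and the Pfkp to Pfkl ratio by 0.30 (0.171 and 0.240). The Hk2 to Hk1 ratio differed by -0.09 (exact permutation p = 0.800, adjusted p = 0.800).

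**Figure D4:**
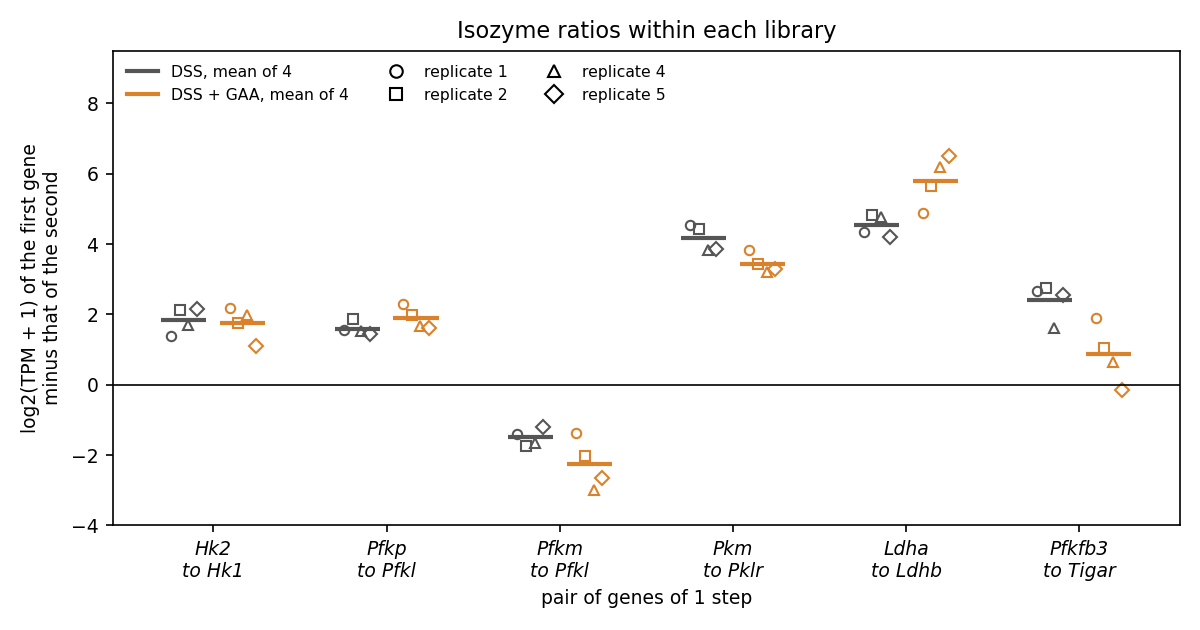
Difference of log2(TPM + 1) between 2 genes of the same step in each library, as points with group means of 4. The Ldha to Ldhb points are higher and the Pkm to Pklr points lower in all 4 DSS + GAA libraries, and the other pairs overlap.

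Of the 17 other glycolysis genes, 16 were tested, 4 fell, 2 rose and 10 did not pass, with a median log2 fold change of -0.09. Over all tested genes 28.2% fell and 5.96% rose, so the falls are no more than the background share. The 6 called were Eno3 and Pklr, which rose, and Eno2, Ldhb, Pfkm and Adpgk, which fell. Eno3, the muscle enolase, rose from 19.1, 14.6, 34.7 and 20.2 TPM to 77.2, 130, 122 and 205 TPM (2.53 ± 0.32, limma adjusted p = 0.00460). Eno2, the neuronal enolase, fell from 22.6, 18.1, 17.3 and 18.0 TPM to 11.3, 7.58, 3.61 and 4.498 TPM (-1.47 ± 0.29, limma adjusted p = 0.00804). Neither gene's groups overlapped. Markers of skeletal muscle stayed under 15 TPM in sum, with Mylpf higher and Tnnt3 lower, while those of enteric neurons and glia fell as given above, and their part in these changes was not tested. Eno1, the common enolase, named after its values were seen, had means of 636 ± 44.3 and 538 ± 28.3 TPM without overlap and did not pass (-0.24 ± 0.12, limma adjusted p = 0.134). Eno3 made up 3.30% ± 1.38 of the summed enolase TPM in DSS and 19.4% ± 6.24 in DSS + GAA.

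Ldhb fell from 50.4, 35.4, 36.6 and 45.2 TPM to 25.4, 16.5, 10.95 and 10.1 TPM, without overlap (-1.43 ± 0.27, limma adjusted p = 0.00716). Pklr rose from 39.3 ± 6.39 to 61.7 ± 10.7 TPM, with overlap (0.63 ± 0.16, limma adjusted p = 0.0190), and the call was lost when DSS replicate 1 (0.0654), DSS + GAA replicate 2 (0.0528) or DSS + GAA replicate 4 (0.0508) was left out. Adpgk, an ADP-dependent glucokinase, fell from 13.9 ± 1.46 to 7.84 ± 0.49 TPM (-0.75 ± 0.13, limma adjusted p = 0.00601) and missed the threshold under quantile normalization (0.0560). Gapdh, the most abundant gene of the list, stood at 2236, 2262, 1831 and 1819 TPM in DSS and at 1777, 1963, 1817 and 1975 TPM in DSS + GAA (-0.11 ± 0.14, limma adjusted p = 0.566). Its groups overlapped, and its sign turned under trimmed mean scaling and median centring.

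Beside glycolysis, the listed genes of hypoxia and HIF signalling that were called on TPM as deposited were all lower. Of 19 tested, 12 fell, 0 rose and 7 did not pass, with a median of -0.54 against -0.25 for all genes, of which 28.2% fell. The markers of neutrophils, endothelium and enteric neurons and glia that fell in the same libraries are given above, and their part in these falls was not tested. Car9, a carbonic anhydrase that HIF-1 induces, stood at 98.2, 137, 106 and 90.4 TPM in DSS and 49.7, 52.8, 49.2 and 58.7 TPM in DSS + GAA. Its groups lay well apart (-1.01 ± 0.14, limma adjusted p = 0.00510). Ddit4, a stress-induced inhibitor of mTORC1, fell from 136 ± 54.5 to 43.2 ± 6.92 TPM (-1.56 ± 0.26, limma adjusted p = 0.00585), and the mitophagy receptor gene Bnip3l from 140 ± 16.1 to 89.2 ± 5.94 TPM (-0.64 ± 0.12, 0.00680). Arnt, the partner subunit of HIF-1, fell from 48.5 ± 5.49 to 32.4 ± 0.99 TPM (-0.56 ± 0.11, limma adjusted p = 0.00829), a call lost under trimmed mean scaling (0.0730) and median centring (0.101). Hif1a fell from 457 ± 47.6 to 319 ± 76.2 TPM (-0.54 ± 0.18, limma adjusted p = 0.0424), and its call was lost in 11 of 18 alternatives (range 0.00551 to 0.391). The list's falls numbered 5 under trimmed mean scaling and median centring, 6 when DSS replicate 1 was left out, and 7 when DSS + GAA replicate 2 or 4 was.

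Genes that decide the fate of pyruvate and lactate gave 1 rise and 3 falls among 18 tested (median 0.03). Neither count is more than the share of all tested genes, of which 5.96% rose and 28.2% fell. Pdk4, which shuts pyruvate dehydrogenase, fell from 53.6, 27.4, 30.2 and 87.4 TPM to 23.1, 14.3, 4.56 and 6.75 TPM, without overlap (-2.02 ± 0.50, limma adjusted p = 0.0163). Its call was lost without DSS replicate 1 (0.0570). Pdp1, the phosphatase that turns pyruvate dehydrogenase back on, fell from 31.7 ± 1.40 to 20.4 ± 1.89 TPM (-0.62 ± 0.11, limma adjusted p = 0.00628), but not under trimmed mean scaling (0.0546) or median centring (0.0732). Slc16a3, the lactate exporter MCT4, fell from 12.6, 10.5, 10.3 and 6.74 TPM to 4.19, 4.10, 3.50 and 4.35 TPM (-1.11 ± 0.19, limma adjusted p = 0.00604). Bsg, the chaperone of the lactate transporters and the most abundant gene of the list, stood at 523 ± 20.3 and 568 ± 72.3 TPM (0.11 ± 0.13, limma adjusted p = 0.535), and passed as higher under trimmed mean scaling (0.0484) and median centring (0.0450). Mdh1, cytosolic malate dehydrogenase, rose from 194 ± 16.7 to 310.5 ± 76.7 TPM (0.64 ± 0.19, limma adjusted p = 0.0296), a call lost when any library but DSS + GAA replicate 1 was left out (range over alternatives 0.00176 to 0.0728).

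Of 12 genes of the citrate cycle, which oxidizes the product of pyruvate in mitochondria, 4 rose, 0 fell and 8 did not pass (median 0.26). Over all tested genes 5.96% rose and 28.2% fell. Cs, citrate synthase, rose from 469, 466, 503 and 583 TPM to 700, 745, 751 and 814 TPM (0.58 ± 0.13, limma adjusted p = 0.0105). Ogdh, of the oxoglutarate dehydrogenase complex, rose from 91.4 ± 16.4 to 149 ± 24.9 TPM (0.70 ± 0.17, limma adjusted p = 0.0140). The groups of both genes did not overlap, and their calls held in 18 of 18 alternatives. Mdh2, mitochondrial malate dehydrogenase, rose from 275 ± 38.1 to 389 ± 63.0 TPM (0.49 ± 0.16, limma adjusted p = 0.0430), but lost its call in 10 of 18. Without DSS + GAA replicate 1, 9 of the 12 rose, and the count of all genes that rose went from 847 to 1277.

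Of 8 pentose phosphate genes, 2 rose and 1 fell (median 0.16), where 5.96% of all tested genes rose and 28.2% fell. G6pdx, the entry enzyme that makes NADPH, rose from 64.7, 52.4, 61.3 and 46.4 TPM to 68.4, 85.9, 102 and 91.7 TPM (0.62 ± 0.16, limma adjusted p = 0.0173). Pgd, the next NADPH-yielding step, rose from 273 ± 29.1 to 381 ± 47.7 TPM (0.47 ± 0.14, limma adjusted p = 0.0285), a call lost in 7 of 18 alternatives (range 0.00606 to 0.0789). H6pd, their counterpart in the endoplasmic reticulum, fell from 50.0 ± 8.67 to 23.2 ± 3.60 TPM (-1.07 ± 0.16, limma adjusted p = 0.00531). Rpia, which isomerizes ribose 5-phosphate, did not pass (37.9 ± 7.01 and 51.5 ± 17.3 TPM, 0.39 ± 0.25, limma adjusted p = 0.240), and without DSS + GAA replicate 1 it passed as higher (0.0311). Of 5 tested gluconeogenic genes 1 rose and 0 fell, beside the same shares of all tested genes. Pcx, pyruvate carboxylase, rose from 17.2, 18.8, 29.1 and 34.8 TPM to 66.4, 55.7, 58.3 and 50.5 TPM (1.23 ± 0.22, limma adjusted p = 0.00655). Pck1, which makes phosphoenolpyruvate in the cytosol, did not pass (means 20.5 ± 9.27 and 33.7 ± 10.6 TPM, 0.75 ± 0.32, limma adjusted p = 0.103), but passed as higher under median centring (0.0492) and without DSS replicate 5 (0.0481), among 3 alternatives in which it passed (range over all 18, 0.0215 to 0.265). Fbp2, a fructose bisphosphatase and the most abundant of this list, stood at 181 ± 9.47 and 192 ± 39.7 TPM (0.07 ± 0.16, limma adjusted p = 0.773), and Pck2 and G6pc3 did not pass (-0.28 ± 0.15, 0.185, and -0.22 ± 0.23, 0.481). Of 8 epithelial markers 4 were higher and 1, Car1, was lower in the same libraries, as given above. The part of epithelial cells in the rises of these lists was not tested.

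**Figure D5:**
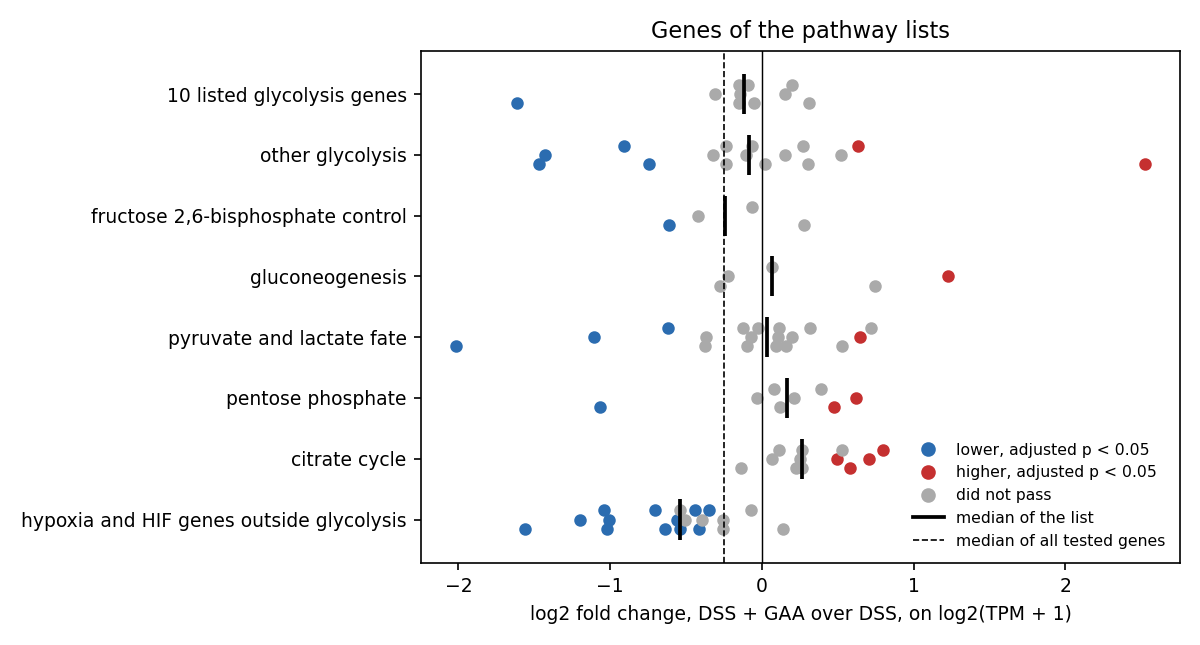
Log2 fold change of each tested gene by list, coloured by its call, with the list's median as a bar and the median of all tested genes (-0.25) as a dashed line. The hypoxia list has 12 lower and 0 higher genes, the citrate cycle list 4 higher and 0 lower, and the 10 listed glycolysis genes 1 lower, all on TPM as deposited.

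The 3 tested genes whose pattern over the 8 libraries was most like that of Pfkfb3 were Grp, Arid5a and Slc7a14. Grp, the gene of gastrin-releasing peptide, had a root mean square difference of 0.16 on the centred log2 scale and fell from 12.4, 10.99, 7.09 and 9.69 TPM to 5.22, 3.23, 2.62 and 1.56 TPM. Arid5a, whose product binds and stabilizes inflammatory transcripts, had a difference of 0.19 and fell from 14.9 ± 1.93 to 5.87 ± 3.20 TPM. Slc7a14, of the cationic amino acid transporter family, had a difference of 0.20 and fell from 9.75 ± 1.51 to 2.86 ± 1.47 TPM. All 3 were chosen for this likeness, so their falls are a description.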

How the data were processed

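RNA of 8 colon libraries was poly(A)-selected and read from both ends on an MGI-T7 sequencer, per the labels' protocols. The authors deposited 1 table with a column of TPM values for each library (each column adds up to 1000000). The deposited log2 fold change and p-value columns (raw, and as a false discovery rate) are the authors' own, from a test that the sources used here do not give. Tools, per the submitters' processing notes, included Trimmomatic, HISAT2, Bowtie2, featureCounts and edgeR on mm10, without versions or roles. Coordinates are from GENCODE vM21 on GRCm38 (mm10), and sequences from RefSeq on GRCm38.p6, which held all 10 genes.

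TPM keeps no depth, so no count test was run and no interval from counts is given. Values were analysed with limma 3.58.1 (R 4.3.3, statmod 1.5.0) as log2(TPM + 1), with group as the only term and empirical Bayes moderation, robust and with a trend. The trimmed mean scaling was computed on TPM without weights, in place of the planned edgeR factors, which need counts, trimming 30% of log ratios and 5% of levels from each end. The fit was tested on simulated data. The members, lists and tests were chosen with earlier results of these data known. Genes named are the 10 members, the 4 with the smallest p and the most abundant gene of each of 7 pathway lists, isozyme partners, and the 3 nearest patterns; others are marked, and 2 that this rule takes, with 1 isozyme pair, are not reported here. The 12 marker lists are described by summed TPM.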

Additional observations from a re-analysis of the deposited data

Results flagged for a closer look

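In a group of 4, a library was singled out when its gap to the nearest other library passed the 95% critical value of Dixon's test. This was looked for in 110 groups of values and found in 5, and chance alone gives about 1 in 20. All 5 lay in the DSS group. Pfkfb3 in DSS replicate 4 stood at 59.5 TPM against 95.9 to 103 TPM in the other DSS libraries. Ldha in DSS replicate 5 stood at 841 TPM against 1017 to 1039 TPM. Eno2 in DSS replicate 1 stood at 22.6 TPM against 17.3 to 18.1 TPM. Pdp1 in DSS replicate 4 stood at 29.6 TPM against 32.2 to 32.7 TPM, and Bsg in the same library at 553 TPM against 512 to 513 TPM. Without DSS replicate 4 the log2 fold change of Pfkfb3 was -1.79 (limma adjusted p = 0.0150), and without DSS replicate 5 that of Ldha was -0.23 (0.222).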

How the results depend on the processing

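Pfkfb3 was the 1 listed gene called lower in all 18 alternatives. Listed genes called higher numbered 3 under trimmed mean scaling and under median centring and 1 with array quality weights, whose estimation stopped before full convergence, against 0 on TPM as deposited, and between 0 and 1 when single libraries were left out. The count of all genes called higher was 847 as deposited, 1890 under trimmed mean scaling, 1677 under quantile normalization, 2165 under median centring and 361 to 1277 without single libraries (361 without DSS replicate 1). The count of all genes called lower was 4006, 1645, 1601, 1308 and 1676 to 4435 in the same order (1676 without DSS replicate 1). Of the 82 tested genes of the 7 pathway lists, 10 rose and 21 fell, where 5.96% of all 14217 tested genes rose and 28.2% fell. Under median centring 16 genes of these lists rose, and 12 fell under trimmed mean scaling and under median centring. Without single libraries 6 to 20 rose and 13 to 18 fell. The counts of all genes in these settings are those given above. The highest count of rises, 20, came without DSS + GAA replicate 1, and the counts of 6 came when DSS replicate 1, DSS + GAA replicate 2 or DSS + GAA replicate 4 was left out. By list, rises and falls ranged over 1 to 4 and 2 to 4 for other glycolysis, 0 to 1 and 0 to 1 for the PFKFB and Tigar list, 1 to 2 and 0 for gluconeogenesis, 0 to 3 and 2 to 3 for pyruvate and lactate, 1 to 3 and 1 for pentose phosphate, 3 to 9 and 0 for the citrate cycle, and 0 and 5 to 13 for hypoxia.

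The sign turned under trimmed mean scaling for Hk1 (0.22), Hk2 (0.13), Pfkl (0.12), Pkm (0.18), Ldha (0.12), Gapdh (0.17), Tigar (0.19) and G6pc3 (0.0322). Under median centring it turned for Hk1 (0.25), Hk2 (0.16), Pfkl (0.15), Pkm (0.21), Ldha (0.15), Gapdh (0.20), Tigar (0.23), Pck2 (0.0259) and G6pc3 (0.0804), and under quantile normalization for Hk1 (0.0201), Pfkl (0.0328), Tigar (0.23), Pck2 (0.0715) and G6pc3 (0.0705). None of these passed. The median shift over all genes was 0.0202 under quantile normalization and 0.0515 under median centring. Without single libraries Hk1 ranged from -0.12 to 0.02, Hk2 from -0.28 to 0.0088, Pfkl from -0.27 to 0.025, Tigar from -0.13 to 0.0122, G6pc3 from -0.36 to 0.0148 and Fbp2 from -0.0274 to 0.21. The 7 ratios within libraries, of which none passed, were recomputed in 10 alternatives (pseudocounts of 0.1 and 5, single libraries left out). None passed there, which the few assignments nearly fix and which says nothing about stability. The difference of Hk2 to Hk1 ranged from -0.24 to 0.12. The cause of these shifts was not tested.

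Replicate numbers are shared between groups, but nothing in the labels says that they mark pairs. Deviations of same-numbered libraries from their group means correlated at 0.18, -0.11, 0.15 and -0.03 for numbers 1, 2, 4 and 5, and not every library correlated best with its own number. With the replicate block all genes called higher numbered 679 and all genes called lower 3340, 0 listed genes rose and 1 fell, and Pfkfb3 kept its call (limma adjusted p = 0.00771). Under the block Pck1 passed as higher (0.0215), and Pfkfb1 (0.0640), Mdh1 (0.0586), Pgd (0.0701), Mdh2 (0.0844) and Hif1a (0.0566) no longer passed. Without counts the precision of single values cannot be given, and n = 4 per group limits what could be detected.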

Other observations

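In the authors' deposited table the log2 fold change and the false discovery rate of the listed genes do not rank alike. Pgk1 has a deposited log2 fold change of -0.32, the largest size after Pfkfb3 among the 10 main rows, and a false discovery rate of 0.963, the highest of them. Aldoa has 0.31 and a false discovery rate of 0.125, and Tpi1 has 0.20 and 0.237. Hk1, with -0.05, has a false discovery rate of 0.637. After median centring of the TPM values, Pgk1 stood at -0.01 (limma adjusted p = 0.970), Aldoa at 0.61 (0.0103) and Tpi1 at 0.50 (0.0272). Which scaling stood behind the deposited p-values was not tested.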
